A study of Homo sapiens with 4 samples.

Results

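The leukocyte serpins are 8 genes of the serpin family that white blood cells are known to express or use, SERPINB1, SERPINB2, SERPINB6, SERPINB8, SERPINB9, SERPINB10, SERPINA1 and SERPING1. They were taken by gene name and make up 8 of the 60662 genes in the deposited table. RNA was sequenced from NB4 cells, an established human acute promyelocytic leukemia line that carries the PML-RARα fusion, after lentiviral transduction with an empty GFP vector (2 libraries) or with the same vector carrying wild-type JMJD3 (2 libraries). GFP-positive cells had been sorted, cultured and sorted again. All libraries come from a single cell line, and no source used here says that replicates were separate transductions, so that p-values measure only the spread between these libraries, which may be technical. JMJD3, encoded by KDM6B, removes methyl groups from lysine 27 of histone H3.

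KDM6B (ENSG00000132510) was at 15.8 and 13.7 CPM in vector libraries 1 and 2, and at 37.9 and 44.1 CPM in JMJD3 libraries 1 and 2, where CPM is the count scaled to the TMM-adjusted size of the library. Both JMJD3 libraries thus lay above both vector libraries, as their labels state, with KDM6B 1.48 higher on the log2 scale (standard error 0.129, adjusted p = 0.00114, edgeR). Reads of the introduced JMJD3 and of endogenous KDM6B were not told apart here.

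Serpins are protease inhibitors that present a loop as bait, and after cleavage they trap the protease in a covalent complex and are themselves used up. The clade B members act mostly inside cells, where they shield white blood cells from proteases that leak out of their own granules, whereas SERPINA1 and SERPING1 are secreted and act in plasma and tissue fluid. Promyelocytes, the stage at which NB4 cells are arrested, are the cells that make the neutrophil serine proteases that SERPINB1, SERPINB6 and SERPINA1 restrain.

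Vector libraries 1 and 2 held a total of 39078443 and 40768225 deposited counts, and JMJD3 libraries 1 and 2 a total of 35176388 and 34704909. These sums are not the numbers of reads. The commonest nonzero count differed by library (1.14297 and 1.04676 in vector libraries 1 and 2, 0.992796 and 0.82875 in JMJD3 libraries 1 and 2), and between 95.8% and 96.0% of the nonzero counts were whole multiples of it within 0.05% (of the count, or of the step where the count was lower). Taken as the worth of 1 read, this step gives 34190262 and 38947060 reads in the vector libraries and 35431638 and 41876210 in the JMJD3 libraries. JMJD3 library 2 had the lowest sum of counts and the most reads. Reads below are counts divided by this step.

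Of the 8 serpins, 5 passed the filter on low counts and entered edgeR's quasi-likelihood test, in which p-values were adjusted over all 15246 genes tested. At an adjusted p under 0.05, 2 of the 5 were called, SERPINB2 higher and SERPINB1 lower in JMJD3 cells, where 40.7% of all genes tested were called, 21.6% higher and 19.1% lower. With a change of at least 2-fold as well, SERPINB2 alone was called, against 10.4% of all genes tested (7.55% higher and 2.82% lower). In CPM the groups did not overlap for 4 of the 5, 2 higher and 2 lower, beside 74.4% of all genes tested (39.6% higher and 34.8% lower). With 5 genes, such shares move by 1 gene in 5 at a time, and nothing particular to the serpins is read from them. SERPINB6, SERPINB9 and SERPING1 had too few counts to be tested.

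**Figure D1:**
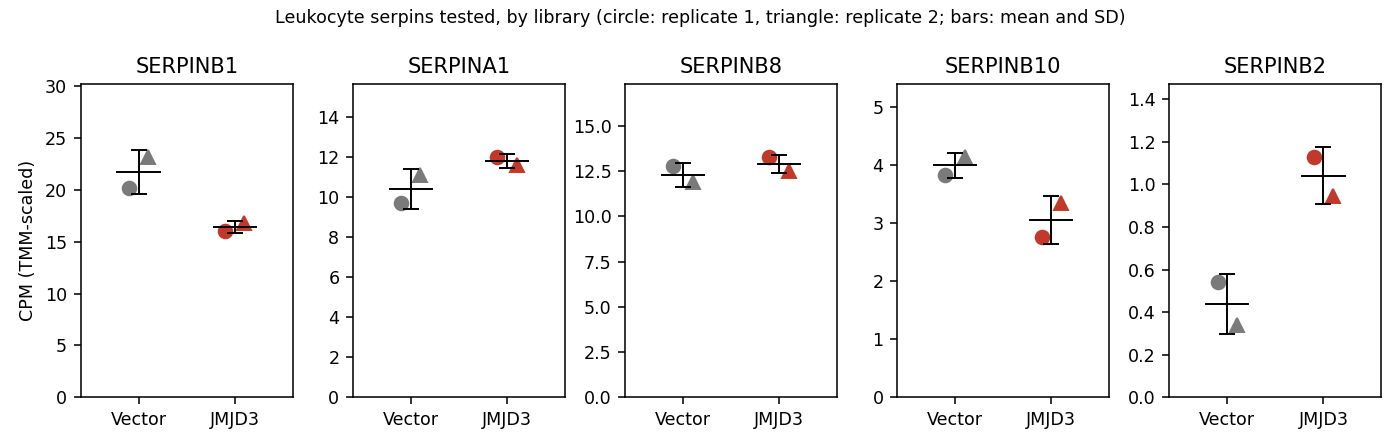
CPM of the 5 tested leukocyte serpins in each library (y axis, from 0 in each panel; circles, replicate 1; triangles, replicate 2), with the mean and SD of each group of 2 libraries. SERPINB1 and SERPINB10 lie lower in both JMJD3 libraries, SERPINA1 and SERPINB2 higher, and the groups overlap for SERPINB8.

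The members lie at 4 places in the genome. In RefSeq's annotation of GRCh38.p14, SERPINB1 (chromosome 6, 2832332 to 2841863), SERPINB9 (2887270 to 2903309) and SERPINB6 (2948159 to 2971793) share a cluster of 139 kb, and SERPINB2 (chromosome 18, 63887705 to 63903888), SERPINB10 (63907958 to 63936111) and SERPINB8 (63970081 to 64019779) one of 132 kb. SERPINA1 on chromosome 14 (94376747 to 94390635) and SERPING1 on chromosome 11 (57597685 to 57614848) have no other member beside them. Serpins outside the members were not placed. The submitters' processing notes name GRCh38 and the study's methods hg19, and the deposited table gives no positions, so that these positions are those of RefSeq and genes were matched by symbol. RefSeq promoters of 300 bases, 250 before to 50 after a start, were found for 6 of the 8 members, 10 promoters in all. They were searched on both strands for TTGCNNAA, a motif of the C/EBP factors, and GAGGAA, a motif of PU.1, since both kinds of factor act in myeloid cells; 10.5% and 27.9% of all 35116 promoters hold them. The C/EBP motif was in 1 of the 10 promoters and the PU.1 motif in 2, and no match of one motif shared bases with a match of the other. The promoters of the 2 called members held neither, and those of SERPINB8, with both motifs, and of SERPINA1, with the PU.1 motif in 1 of its 2 promoters, are of members that were not called. The other SERPINA1 promoter, at chr14:94388553-94388852, held neither motif and is not shown. They are shown 5′ to 3′ with motif matches in capitals.
SERPINB1, chr6:2841814-2842113, minus strand: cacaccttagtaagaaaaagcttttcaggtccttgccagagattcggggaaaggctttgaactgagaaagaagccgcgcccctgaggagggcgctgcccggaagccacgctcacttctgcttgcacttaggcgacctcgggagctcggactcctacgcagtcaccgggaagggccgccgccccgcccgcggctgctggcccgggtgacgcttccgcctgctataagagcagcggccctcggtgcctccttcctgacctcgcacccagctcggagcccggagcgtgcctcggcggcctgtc
SERPINB2, chr18:63887455-63887754, plus strand: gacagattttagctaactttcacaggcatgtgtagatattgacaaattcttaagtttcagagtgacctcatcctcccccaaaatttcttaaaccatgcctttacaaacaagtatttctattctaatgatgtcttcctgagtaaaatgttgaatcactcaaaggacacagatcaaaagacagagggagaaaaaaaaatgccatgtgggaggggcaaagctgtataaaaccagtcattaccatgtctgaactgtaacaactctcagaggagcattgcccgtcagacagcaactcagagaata
SERPINB8, chr18:63969831-63970130, plus strand: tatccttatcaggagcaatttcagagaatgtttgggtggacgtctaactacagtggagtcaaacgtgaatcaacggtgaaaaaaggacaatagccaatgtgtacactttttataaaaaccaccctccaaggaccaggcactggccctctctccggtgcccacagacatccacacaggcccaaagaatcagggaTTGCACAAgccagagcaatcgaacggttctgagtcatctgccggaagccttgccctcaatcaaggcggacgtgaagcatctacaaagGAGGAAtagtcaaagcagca
SERPINA1, chr14:94390586-94390885, minus strand: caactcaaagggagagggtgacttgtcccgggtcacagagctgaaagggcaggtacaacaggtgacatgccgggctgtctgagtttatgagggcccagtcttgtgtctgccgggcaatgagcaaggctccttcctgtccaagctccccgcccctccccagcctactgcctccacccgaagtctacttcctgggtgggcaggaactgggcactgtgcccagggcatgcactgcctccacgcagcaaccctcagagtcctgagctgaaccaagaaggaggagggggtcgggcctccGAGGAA
In SERPINB8 the C/EBP match begins 57 bases before the start. A match is a run of letters and says nothing of binding, and a window without one says only that these letters are not in it.

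SERPINB1 (ENSG00000021355), the inhibitor of neutrophil elastase, proteinase 3 and cathepsin G in the cytoplasm of neutrophils and monocytes, was at 20.2 and 23.2 CPM in vector libraries 1 and 2, and at 16 and 16.8 CPM in JMJD3 libraries 1 and 2. Both JMJD3 libraries were lower than either vector library, although the vector libraries differed from each other almost as much as vector library 1 did from JMJD3 library 2. The means were 21.7 ± 2.11 CPM (SD, n = 2) and 16.4 ± 0.573 CPM (SD, n = 2), and SERPINB1 fell by 0.40 on the log2 scale (standard error 0.114, adjusted p = 0.0301, edgeR), that is to 0.756 of the vector level. These values rest on 656 and 846 reads in vector cells, and on 597 and 752 reads in JMJD3 cells. In a bulk library, fewer cells that express a gene and less RNA per cell cannot be told apart.
On the FPKM scale, SERPINB1 was at 15.5 and 18.6 in vector libraries and at 13.9 and 13.8 in JMJD3 libraries. The groups did not overlap on this scale either, but with limma on log2(FPKM + 1) the log2 fold change was -0.28 and did not pass the threshold (adjusted p = 0.151, against 0.00512 to 0.254 over the alternatives). The call was also lost with no filter on low counts, and without JMJD3 library 1 (log2 fold change -0.37, adjusted p = 0.254, edgeR) or JMJD3 library 2 (-0.44, adjusted p = 0.181, edgeR). Vector library 1 was run on lane 20 and the others on lane 17, and within lane 17 the log2 fold change was -0.54 (adjusted p = 0.00512, edgeR). That fit sets 1 vector library against 2 JMJD3 libraries and assumes that the lone vector library varies as the JMJD3 libraries do, and each other fit without a library makes the like assumption for the group left with 1.

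SERPINB6 (ENSG00000124570), an inhibitor of cathepsin G found in the cytoplasm of many cell types, was listed at 0 in vector libraries 1 and 2 and in JMJD3 libraries 1 and 2, both as counts and as FPKM. Nothing can be compared between groups for it. None of 89 commonly used genes, such as ACTB and GAPDH, was listed at 0 in the table, but CKAP4, SAT2 and TCEAL4, which most cells express, were at 0 in every library. All these genes were singled out after the values were seen. A 0 here may therefore be a failed estimate, and no limit on the level of SERPINB6 was drawn from it.

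SERPINA1 (ENSG00000197249), alpha-1-antitrypsin, the main plasma inhibitor of neutrophil elastase, which liver cells and also myeloid cells make, was at 9.71 and 11.1 CPM in vector libraries 1 and 2, and at 12 and 11.6 CPM in JMJD3 libraries 1 and 2. Both JMJD3 libraries lay above the vector libraries, but JMJD3 library 2 was closer to vector library 2 than the vector libraries were to each other. The log2 fold change was 0.18 (standard error 0.121, adjusted p = 0.267, edgeR), from 315 and 405 reads in vector cells and 449 and 516 in JMJD3 cells. Without vector library 1 the log2 fold change was 0.049, and without vector library 2 it was 0.28. In FPKM the groups overlapped, at 6.90 and 7.67 in vector and 7.62 and 7.83 in JMJD3 libraries. Hepatocyte markers gave little signal. Of 5 such markers 3 were listed at 0 in every library, the list summed to 0.729 and 0.655 CPM in vector and 0.270 and 0.405 CPM in JMJD3 libraries, and APOA1 was its most abundant gene.

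SERPINB2 (ENSG00000197632), plasminogen activator inhibitor 2, which restrains urokinase, was at 0.540 and 0.341 CPM in vector libraries 1 and 2, and at 1.13 and 0.945 CPM in JMJD3 libraries 1 and 2. Both JMJD3 libraries were well above the vector libraries. The means of 0.440 ± 0.141 CPM (SD, n = 2) and 1.04 ± 0.134 CPM (SD, n = 2) put SERPINB2 1.24 higher on the log2 scale (standard error 0.33, adjusted p = 0.0253, edgeR). In FPKM it was the least abundant of the tested serpins.
SERPINB10 (ENSG00000242550), bomapin, a serpin of bone marrow cells whose natural target is not settled, was at 3.83 and 4.14 CPM in vector libraries 1 and 2, and at 2.75 and 3.35 CPM in JMJD3 libraries 1 and 2. It thus lay lower in both JMJD3 libraries, opposite to SERPINB2. Its log2 fold change of -0.39 did not pass the threshold (standard error 0.168, adjusted p = 0.107, edgeR).
The counts of these neighbours were not independent. In reads, SERPINB2 held 17.83 and 12.21 in vector libraries 1 and 2, and 42.55 and 41.81 in JMJD3 libraries 1 and 2, none of them whole within 0.02 reads. SERPINB10 held 124.17 and 150.79 in vector and 102.45 and 150.19 in JMJD3 libraries, again none of them whole. Added up, however, they gave 142 and 163 reads in vector libraries 1 and 2 and 145 and 192 in JMJD3 libraries 1 and 2, whole in 4 of 4 libraries. The other tested members, SERPINB1, SERPINA1 and SERPINB8, were whole in every library, as were 83.6% of all genes tested, while 6.62% were whole in none. At least some reads were thus divided between SERPINB2 and SERPINB10 in the authors' estimate, and how many was not measured.
SERPINB2 made up 12.6% and 7.49% of the summed counts in vector libraries 1 and 2, and 29.3% and 21.8% in JMJD3 libraries 1 and 2. The sum itself was at 4.38 and 4.47 CPM in vector and 3.89 and 4.30 CPM in JMJD3 libraries. All 4 values were close, with the JMJD3 libraries slightly lower. Tested as 1 gene, the sum differed by -0.11 on the log2 scale (standard error 0.14, adjusted p = 0.553, edgeR), a test added after the data were seen. Since most of the sum is SERPINB10, this value does not tell a rise of SERPINB2 with a fall of SERPINB10 apart from a different division of shared reads. The reads that lie in SERPINB2 alone were not analysed here, and its call carries that uncertainty.
Both genes lie 4069 bases apart and share no exon bases in GENCODE release 44. That release has a further gene, ENSG00000289724, with 2 transcripts that join exons of both. Of its 840 exon bases 547 are also exon bases of SERPINB2 and 293 of SERPINB10. It has no row in the deposited table, and which transcripts the authors' annotation gave to SERPINB10 is not given in the sources used here.
The call on SERPINB2 was also lost with the DESeq2 Wald test (adjusted p = 0.106, against 0.00702 to 0.553 over the alternatives) and with no filter on low counts. It was lost without vector library 2 (log2 fold change 0.94, adjusted p = 0.0584, edgeR) and without JMJD3 library 1 (1.10, adjusted p = 0.115, edgeR). Within lane 17, with 1 vector library, the log2 fold change was 1.56 (adjusted p = 0.0147, edgeR). On log2(FPKM + 1), a scale that understates changes of low genes, it was 0.49.

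**Figure D2:**
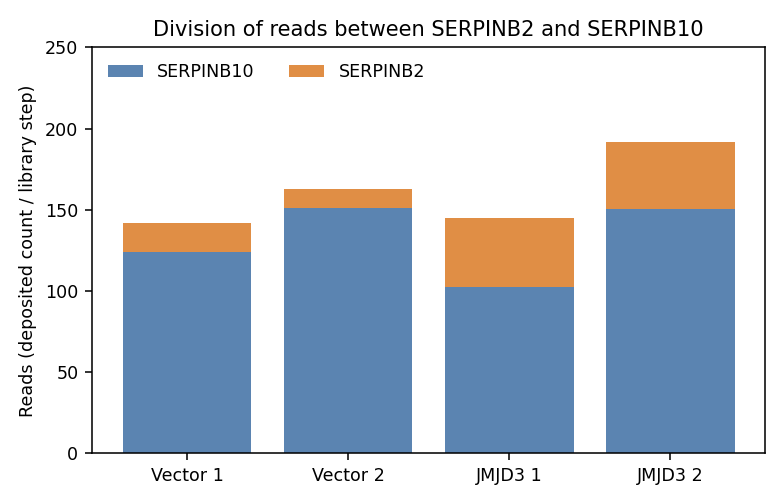
Reads (y axis, deposited count divided by the library's step) given to SERPINB10 (blue) and SERPINB2 (orange) in each library, stacked. The stacks reach whole numbers, 142 and 163 in vector libraries and 145 and 192 in JMJD3 libraries, and the orange share is larger in JMJD3 libraries.

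SERPINB8 (ENSG00000166401), an inhibitor of furin, was at 12.8 and 11.9 CPM in vector libraries 1 and 2, and at 13.3 and 12.5 CPM in JMJD3 libraries 1 and 2. The groups overlapped. The log2 fold change was 0.065 (standard error 0.111, adjusted p = 0.664, edgeR), from 415 and 433 reads in vector cells and 495 and 560 in JMJD3 cells. SERPINB8 lies beside SERPINB10 in the chromosome 18 cluster, and its counts were whole in every library.

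SERPINB9 (ENSG00000170542), the inhibitor of granzyme B that protects cytotoxic cells from their own granules, had 0 reads in vector libraries 1 and 2, 0 in JMJD3 library 1 and 1 in JMJD3 library 2. As for SERPINB6, a 0 in this table may be a failed estimate, and no limit on its level was drawn and no comparison made. Its target GZMB had 1 read in vector library 1 and 0 in the other libraries.

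SERPING1 (ENSG00000149131), C1 inhibitor, which restrains C1r, C1s, the MASP proteases, plasma kallikrein and coagulation factor XII, had 5 and 4 reads in vector libraries 1 and 2, 6 in JMJD3 library 1 and 0 in JMJD3 library 2. The groups overlapped, and the JMJD3 libraries lay at either end. Its FPKM was 0.0881 in vector library 1 but 0.192 in vector library 2, which had fewer reads, and FPKM also takes in the transcript length assumed in each library. SERPING1 was not tested, and no difference between the groups is read from so few reads.

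The order of levels was read on the FPKM scale, which allows for length. It was SERPINB1, SERPINA1, SERPINB8, SERPINB10 and SERPINB2, with means over 4 libraries of 15.5, 7.51, 5.63, 2.45 and 0.523 FPKM. SERPINB6, SERPINB9 and SERPING1, each listed at 0 in at least 1 library, were not placed in it. SERPINB8 was at 5.39 and 5.49 FPKM in vector and 5.93 and 5.71 FPKM in JMJD3 libraries, below SERPINA1 in every library. SERPINB10 was at 2.54 and 2.75 FPKM in vector and 2.17 and 2.33 FPKM in JMJD3 libraries, and SERPINB2 at 0.322 and 0.207 FPKM in vector and 0.958 and 0.603 FPKM in JMJD3 libraries, so that these also kept their order in every library, with the limit that they share reads.

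The genes most like SERPINB1 were sought over the 4 libraries, as those with the smallest Euclidean distance in log2 CPM centred on each gene's mean, among 12386 other tested genes with a mean of at least 1 FPKM. They were DVL1, AGER and CPSF4, at distances of 0.0159, 0.0181 and 0.0241. Their log2 fold changes were -0.39 for DVL1 (adjusted p = 0.0174, edgeR), -0.42 for AGER (adjusted p = 0.052, edgeR) and -0.39 for CPSF4 (adjusted p = 0.0191, edgeR). The calls on DVL1 and CPSF4 were lost with no filter on low counts and without either JMJD3 library, and AGER was called with DESeq2 size factors (adjusted p = 0.0448, edgeR), without vector library 1 (adjusted p = 0.0169, edgeR) and with replicate numbers crossed. With 4 libraries such a likeness describes these values and nothing further.

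Of 16 proteases that these serpins inhibit 9 were tested, and 2 were higher and 4 lower in JMJD3 cells, where 21.6% of all genes tested were higher and 19.1% lower, with a median log2 fold change of -0.198 beside 0.041 over all genes tested and 0.065 over the 5 tested serpins. CTSG, cathepsin G, a target of SERPINB1 and SERPINB6, was at 145 and 164 CPM in vector and at 11 and 9.61 CPM in JMJD3 libraries. It fell by 3.90 on the log2 scale (adjusted p = 9.25e-05, edgeR), and PRTN3, proteinase 3, a target of SERPINB1 and SERPINA1, fell by 1.81 (adjusted p = 0.000394, edgeR). ELANE, neutrophil elastase and the main target of SERPINA1, was not tested. It had 11 and 7 reads in vector libraries 1 and 2, and 1 and 2 reads in JMJD3 libraries 1 and 2. As for SERPINB6, so low a value may be a failed estimate, and no level of ELANE in this line was drawn from it.
Together, these 3 proteases reached 2976 FPKM in vector library 1 and 3666 FPKM in vector library 2, against 901.3 FPKM in JMJD3 library 1 and 843.4 FPKM in JMJD3 library 2. For each FPKM of SERPINB1 there were 191 and 197 FPKM of the proteases in vector libraries 1 and 2, and 64.6 and 61.2 in JMJD3 libraries 1 and 2. For each FPKM of SERPINA1 there were 431 and 478 in vector and 118 and 108 in JMJD3 libraries. Nearly all of the sum was PRTN3, at 2750 and 3400 FPKM in vector and 884 and 828 FPKM in JMJD3 libraries. ELANE was listed at 0.469 and 0.299 FPKM in vector and 0.0401 and 0.0677 FPKM in JMJD3 libraries. These listed values were below both inhibitors in every library, with the limit given above. RNA levels do not give the amounts of protein.

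**Figure D3:**
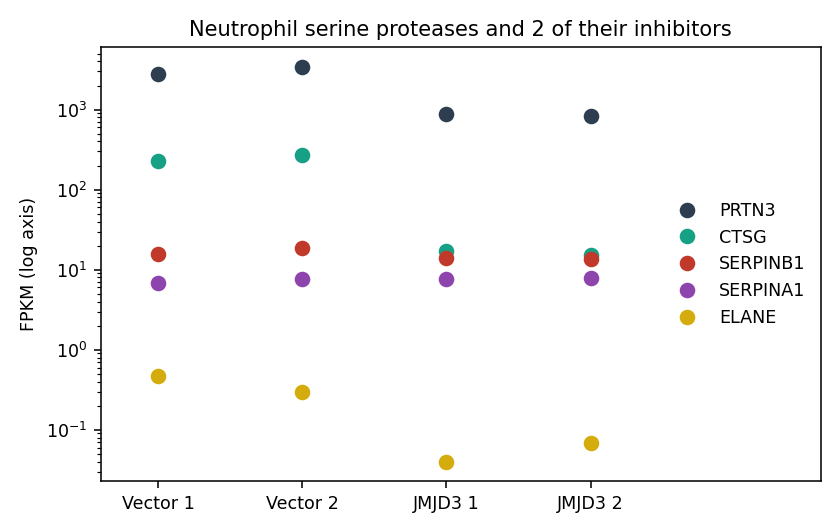
FPKM (log axis) of the neutrophil serine proteases PRTN3, CTSG and ELANE and of their inhibitors SERPINB1 and SERPINA1 in each library (x axis). PRTN3 and CTSG are lower in both JMJD3 libraries, where CTSG comes near SERPINB1. The listed values of ELANE, which may be failed estimates, lie below both serpins in every library.

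Of the other targets, PLAU, the urokinase that SERPINB2 inhibits, rose, from 17.5 and 20.6 CPM in vector to 29.1 and 25.3 CPM in JMJD3 libraries (log2 fold change 0.52, adjusted p = 0.0205, edgeR), a call lost with no filter on low counts and without JMJD3 library 1 (adjusted p = 0.182, edgeR). CASP1, which SERPINB9 can also inhibit, fell by 0.44 on the log2 scale (adjusted p = 0.0193, edgeR). FURIN, the target of SERPINB8, was at 150 and 154 CPM in vector and 131 and 133 CPM in JMJD3 libraries and did not pass the threshold (log2 fold change -0.20, adjusted p = 0.0761, edgeR), but did so within lane 17 with its single vector library (-0.25, adjusted p = 0.0151, edgeR) and with replicate numbers crossed. Among the targets of SERPING1, C1R rose by a log2 fold change of 1.02 (adjusted p = 0.0193, edgeR) and MASP2 fell by 1.5 (adjusted p = 0.00256, edgeR), while F12 did not pass the threshold (adjusted p = 0.0557, edgeR) except with the replicate block (adjusted p = 0.0465, edgeR), without vector library 2 (adjusted p = 0.00885, edgeR) and with replicate numbers crossed. The calls on CASP1 and C1R were lost without either JMJD3 library, among other alternatives. Of 3 genes for protease activation and clearance, 2 were tested, and CTSC, the peptidase that activates the granule serine proteases, fell by 0.38 (adjusted p = 0.00728, edgeR), a call lost without either JMJD3 library.

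Among 28 other serpins 17 were listed at 0 in every library and 6 were tested, with 2 higher and 1 lower (all genes tested, 21.6% and 19.1%) and a median log2 fold change of 0.132. SERPINF1, pigment epithelium-derived factor, a serpin that inhibits no protease, was at 61.5 and 69.6 CPM in vector and 90.2 and 86.6 CPM in JMJD3 libraries, and rose by a log2 fold change of 0.43 (adjusted p = 0.0142, edgeR). SERPINH1, a collagen chaperone, was at 60.0 and 67.3 CPM in vector and 87.0 and 82.9 CPM in JMJD3 libraries, and rose by 0.42 (adjusted p = 0.0156, edgeR). Both were above SERPINB1, the tested leukocyte serpin with the highest level, at 53.3 to 75.3 FPKM for SERPINF1 and 33.6 to 47.9 FPKM for SERPINH1 beside 13.8 to 18.6 FPKM for SERPINB1. SERPINE2, protease nexin 1, which inhibits thrombin and urokinase, was at 8.44 and 7.55 CPM in vector and 5.13 and 4.37 CPM in JMJD3 libraries, and fell by 0.75 on the log2 scale (adjusted p = 0.00897, edgeR). The calls on SERPINF1 and SERPINH1 were lost without either JMJD3 library, and that on SERPINE2 without JMJD3 library 2.

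**Figure D4:**
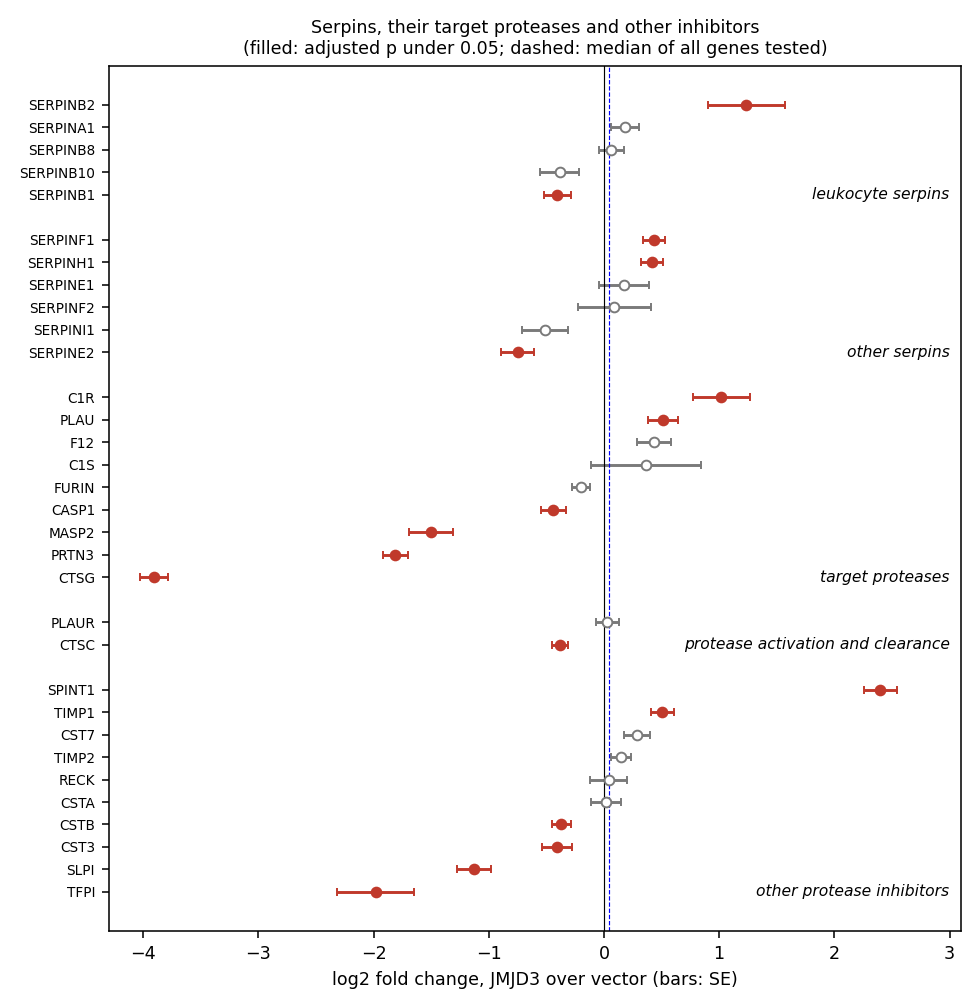
Log2 fold change of JMJD3 over vector (x axis, bars the standard error) for the tested leukocyte serpins, other serpins, target proteases, genes of protease activation and clearance, and other protease inhibitors. Filled points passed an adjusted p of 0.05, and the dashed line is the median over all genes tested, 0.041. CTSG, SPINT1, TFPI, PRTN3 and MASP2 lie farther from it than any tested leukocyte serpin.

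Of 14 protease inhibitors of other families 10 were tested, with 2 higher and 4 lower (all genes tested, 21.6% and 19.1%) and a median log2 fold change of 0.028. SPINT1, an inhibitor of membrane-bound serine proteases, rose by a log2 fold change of 2.40 (adjusted p = 0.000432, edgeR) and TIMP1, an inhibitor of metalloproteinases, by 0.51 (adjusted p = 0.00994, edgeR). SLPI, a secreted inhibitor of elastase and cathepsin G, fell by 1.13 (adjusted p = 0.00262, edgeR), and TFPI, of the tissue factor pathway, by 1.98 (adjusted p = 0.00566, edgeR). The cysteine protease inhibitors CST3 and CSTB fell by 0.41 (adjusted p = 0.0435, edgeR) and 0.37 (adjusted p = 0.015, edgeR), calls lost without either JMJD3 library, and for CST3 under others too. The call on TIMP1 was lost without JMJD3 library 1, and that on TFPI with limma on either FPKM scale.

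The genes beside the serpins were called in both directions, and these counts are read against the 21.6% of all genes tested that were higher and the 19.1% that were lower. Around the chromosome 6 cluster of SERPINB1, 9 of 9 neighbours were tested, MYLK4 was higher, and GMDS and WRNIP1 were lower. Around the chromosome 18 cluster of SERPINB2 and SERPINB10, 4 of 5 were tested, and BCL2 and KDSR were higher. Around SERPINA1, 9 of 11 were tested, OTUB2 was higher, and CLMN and DDX24 were lower. Around SERPING1, 9 of 13 were tested, SLC43A3, PRG2 and PRG3 were higher, and TIMM10 and CLP1 were lower. The median log2 fold changes of these lists were -0.04, 0.35, 0.261 and 0.123, and PRG2, an eosinophil granule protein encoded near SERPING1, rose by 2.01 (adjusted p = 0.000375, edgeR). Calls on PRG3, OTUB2, CLMN, MYLK4, CLP1, SLC43A3, DDX24, KDSR, GMDS and WRNIP1 were lost under at least 1 alternative.

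Some markers of the cell types that use these serpins were called between the groups, and their part in the serpin values was not tested. Of 9 granulocyte precursor markers 8 were tested, with 2 higher and 5 lower, beside 21.6% and 19.1% of all genes tested, shares that apply to the other marker lists too; the list, led by MPO, summed to 16897 and 17650 CPM in vector and 10802 and 10751 CPM in JMJD3 libraries. Of 7 monocyte or macrophage markers, a class that makes SERPINB2 and SERPINA1, 4 were tested and 2 were higher, CSF1R and FCN1 (the latter not with limma on either FPKM scale, no filter or without either JMJD3 library), and the list, led by FCN1, summed to 35.7 and 32.9 CPM in vector and 51.3 and 54.4 CPM in JMJD3 libraries. T or NK cell markers, led by CD2, summed to 13.9 and 13.9 CPM in vector and 15.5 and 16.6 CPM in JMJD3 libraries, with CD2 higher and NCAM1 lower, while CD3D, CD3E and CD3G were at 0.262 CPM or less in every library. B cell markers, led by CD79A, summed to 10.4 and 11.6 CPM in vector and 17.6 and 15.9 CPM in JMJD3 libraries, with MS4A1 listed at 0. All 5 erythroid markers were listed at 0. Megakaryocyte markers, led by ITGA2B, summed to 0.621 and 0.707 CPM in vector and 1.79 and 1.67 CPM in JMJD3 libraries, with 2 of 4 listed at 0. Of 4 epithelial markers 3 were listed at 0, and EPCAM was at 4.53 and 5.29 CPM in vector and 1.22 and 1.16 CPM in JMJD3 libraries.

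**Figure D5:**
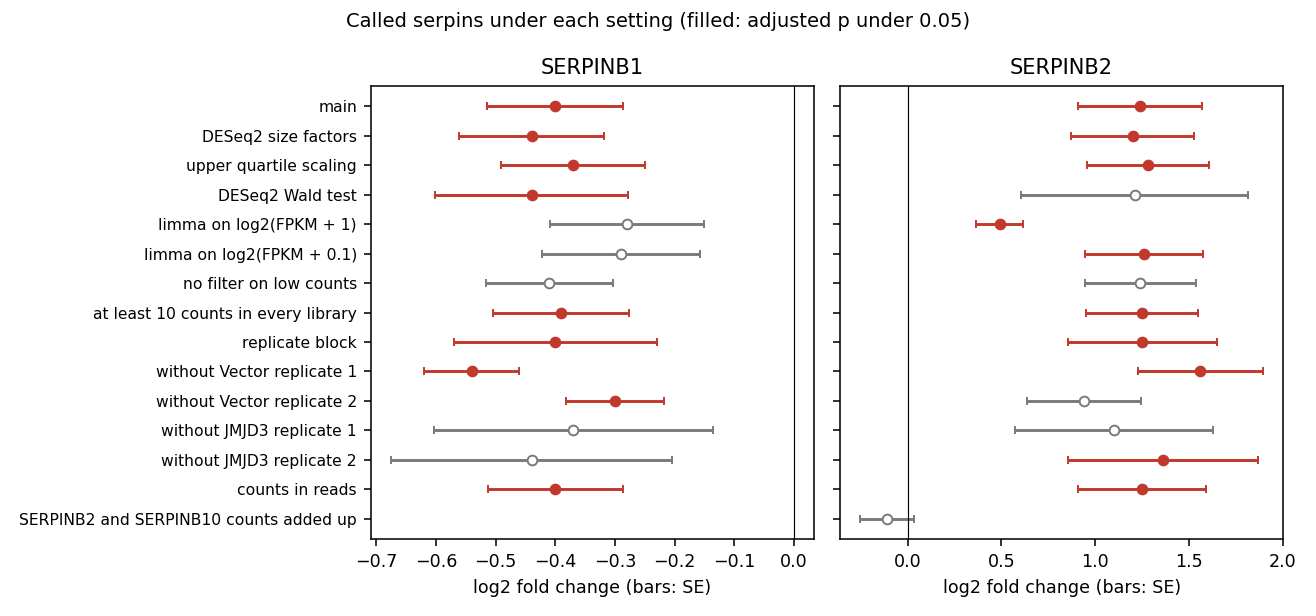
Log2 fold change (x axis, bars the standard error) of SERPINB1 and SERPINB2 by way of processing the counts (y axis), crossed replicate numbers left out. Filled points passed an adjusted p of 0.05. SERPINB1 has no point in the row where the counts of SERPINB2 and SERPINB10 are added up, and lies below 0 in the others. SERPINB2 lies above 0 in each row but that one, where the value is -0.11.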

How the data were processed

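The authors deposited a table of estimated counts and FPKM values, 1 of each for every gene and library, with columns of their own comparison (fold change, p-value, FDR), which were not used. The submitters' processing notes name CASAVA 1.8, TopHat2 2.0.4, RSEM, edgeR and GRCh38, the study's methods STAR, HTSeq-count, DESeq2 and hg19. Of the nonzero counts 99.4% were not whole. Counts were rounded, filtered with filterByExpr (15246 of 60662 genes) and scaled by TMM. The test was the quasi-likelihood F test of edgeR 4.0.16 in R 4.3.3 on all 4 libraries with no covariate. The standard error is the log2 fold change divided by the square root of F. Alternatives used limma 3.58.1 and DESeq2 1.42.0. The fits were tested on simulated counts. A chi-square per gene of 23.6 between vector and 5.58 between JMJD3 libraries showed that replicates differed beyond counting error. Members and lists were chosen with earlier results of these data known. Named are KDM6B, the members and every gene of a pathway or neighbour list at an adjusted p under 0.05 (at most 8 a list), the 3 genes most like SERPINB1, and FURIN, F12, GZMB, ELANE and markers. Strand was not stated, so that antisense reads cannot be told apart.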

Additional observations from a re-analysis of the deposited data

How the results depend on the processing

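The fall of SERPINB1 kept its direction under all 14 alternatives, but lost its call with limma on log2(FPKM + 1) (-0.28) and log2(FPKM + 0.1) (-0.29) and with no filter on low counts (-0.41), where 27095 genes were tested, as well as without either JMJD3 library. SERPINB2 kept its direction but lost its call with the DESeq2 Wald test (1.21) and no filter (1.24) and without vector library 2 or JMJD3 library 1, and turned to -0.11 when its counts and those of SERPINB10 were added up, a sum that is mostly SERPINB10; the cause was not tested. With each library left out in turn, where the lone library is assumed to vary like the other group, log2 fold changes ran from -0.54 to -0.30 for SERPINB1 and from 0.94 to 1.56 for SERPINB2. For SERPINA1 they ran from 0.049 to 0.28, for SERPINB10 from -0.53 to -0.25 and for SERPINB8 from 0.014 to 0.1. SERPINB8, SERPINB10 and SERPINA1 were called under none of the settings run and kept their direction. The number of serpins called higher was 0 instead of 1 with the DESeq2 Wald test, no filter or an adjusted p under 0.01. The number lower was 0 instead of 1 with limma on either FPKM scale, no filter, an adjusted p under 0.01 or a 2-fold minimum. At an unadjusted p under 0.05, 1 serpin was higher under every setting run except without vector library 2 (2 higher). At that p, 0 were lower with limma on either FPKM scale and without either JMJD3 library, 2 with DESeq2 size factors, without vector library 1 or with replicate numbers crossed, and 1 under the others, the DESeq2 Wald test and edgeR without filter included. The share of all genes at that unadjusted p was not taken, so nothing particular to the serpins is read from these counts. Other causes were not tested.

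Of all genes, 3292 were higher and 2906 lower. Higher were 2046 with limma on log2(FPKM + 1), 2032 on log2(FPKM + 0.1), 1893 with no filter, 1468 at an adjusted p under 0.01, 1151 with a 2-fold minimum and 1920 to 4343 with a library left out. Lower were 1776 with no filter, 1300 at 0.01, 430 with a 2-fold minimum and 1133 to 4183 with a library left out. With a replicate block, SERPINB1 was at -0.40 (adjusted p = 0.0497, edgeR) and SERPINB2 at 1.25 (adjusted p = 0.00702, edgeR), and 3267 genes were higher and 2415 lower; same-numbered libraries deviated with a correlation of -0.252 across genes, which does not pair them. With replicate numbers crossed, an alternative chosen after seeing the data, 4335 genes were higher and 3772 lower. With counts in reads, also chosen then, 3304 were higher and 2915 lower, and 6176 of the 6198 calls were shared. For 42 other named genes, KDM6B included, 505 alternative values kept direction and side of the threshold, 71 lost and 8 gained a call, and 0 reversed.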
